A study of Mus musculus with 4 samples.

Results

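The genes described here build or attach to the epithelial keratin cytoskeleton: the keratins Krt7, Krt8, Krt14, Krt18 and Krt19, the desmosome genes Dsp, Jup and Pkp2, and the epithelial adhesion genes Epcam and Mpzl2. These 10 genes were chosen by name out of 18193 genes that the array's annotation pairs with at least 1 probe set of their own, and all 22 probe sets paired with one of them alone were read on all 4 arrays. The choice was made with earlier results of these data known. Shares over all genes given beside member counts are therefore a scale for those counts and no test of the list. The cells were mouse embryonic fibroblasts taken from FAK -/- mice or from FAK +/+ mice and used at passage 5. FAK, the focal adhesion kinase, signals from the sites where integrins hold cells to the matrix, and all cells of a FAK -/- mouse lack it. The cells were grown with 10% serum, starved of serum for 24 h and then kept for 24 h with or without endothelin-1 (ET-1), a peptide hormone with receptors of the G protein-coupled type, at a dose not given in the sources used here. The groups were ET-1-treated FAK -/-, untreated FAK -/-, ET-1-treated FAK +/+ and untreated FAK +/+ cells, with 1 array each. How many embryos or lines stand behind each genotype is not given in the sources used here, so a difference between genotypes and a difference between 2 cultures cannot be told apart.

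Keratins form filaments only as pairs of a type I and a type II chain. Krt7 and Krt8 are type II chains, and Krt14, Krt18 and Krt19 are type I chains. Krt8 and Krt18 are the standard pair of simple, single-layered epithelia, Krt7 and Krt19 are common in ducts and in the mesothelium that lines body cavities, and Krt14 pairs with Krt5 in the basal layer of stratified epithelia. Desmosomes are the junctions that tie these filaments together from cell to cell: desmogleins and desmocollins span the membrane, plakoglobin (Jup) and the plakophilins bind their tails, and desmoplakin (Dsp) links that plaque to keratin. Fibroblasts are mesenchymal cells that rely mainly on vimentin filaments, and low-level keratin expression is known in cultured mesenchymal cells.

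Values are RMA summaries on the log2 scale, so a difference of 1 is a 2-fold difference, and levels of different probe sets are not comparable with each other. The array medians lay between 8.88 and 8.92, and the median of all values, 8.90, served as the filter on dim probe sets: a probe set was tested when its highest value was above it. All 10 genes passed by their brightest probe set, and 20 of the 22 probe sets passed. With 1 array in a group, a difference between 2 arrays has no replicate check. The ET-1-treated wild-type array stood apart in a control for RNA quality, with a gap between the 3' and 5' probe sets of Gapdh of 3.79 against 0.85 to 0.90 on the other arrays. Its part in the values that use this array was not tested. The genotype comparison in untreated cells does not use the values of that array. The filter and the choice of the brightest probe set did use it, and whether RMA did is not given. The same gap for Actb was 1.81 on that array, 0.66 in untreated wild type, and 1.27 and 1.30 in ET-1-treated and untreated knockout cells. Of 12 fibroblast markers, among them vimentin and collagen chains, 8 to 10 were above 8.90 on each array.

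FAK knockout cells carried more message of most of these genes than wild-type cells, with a single keratin going the other way. In untreated cells 6 of the 10 genes (Krt7, Krt8, Krt14, Krt18, Dsp and Mpzl2) were at least 2-fold higher in the knockout and Krt19 was at least 2-fold lower. Over all 12296 genes past the filter, 4.77% were higher by that margin and 4.59% were lower. In ET-1-treated cells 6 were again 2-fold or more higher (Jup in place of Krt8) and Krt19 was lower, beside 5.6% of all genes higher and 6.53% lower. The 10 genes had a median log2 difference of 1.80 with ET-1 and 1.61 without it, and the medians over all genes were -0.03 with ET-1 and 0.02 without it. Pkp2 and Epcam stayed within 2-fold in both states. Because the list was made with earlier results known, its distance from the shares and medians of all genes is not a test.

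**Figure D1:**
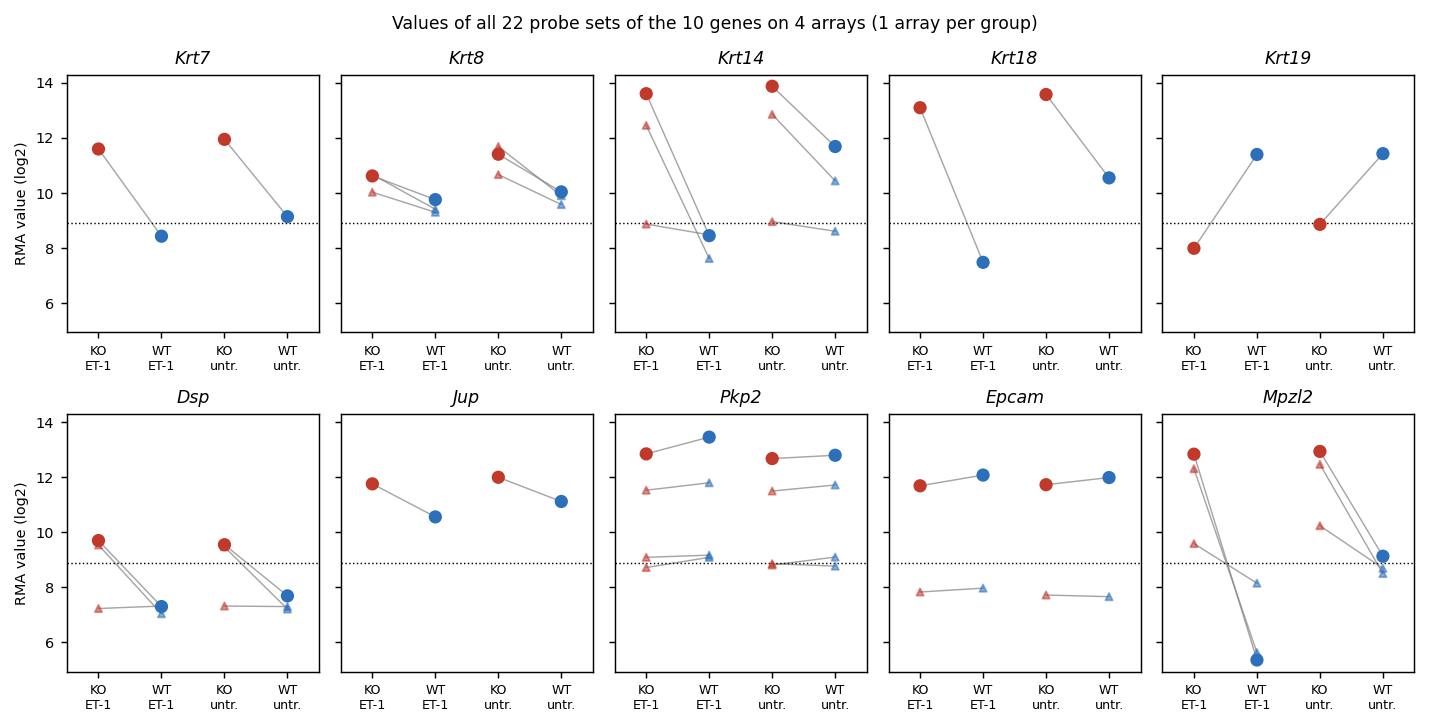
Each panel shows 1 gene, with the log2 RMA value on the y axis and the 4 arrays on the x axis (KO, FAK knockout in red; WT, wild type in blue; untr., untreated); large circles are the brightest probe set of the gene, triangles its other probe sets, grey lines join the genotypes within a treatment, and the dotted line marks 8.90. Krt18 has its lowest value, 7.48, on the array of ET-1-treated wild-type cells, whereas Krt19 is the keratin with its low values, 7.99 and 8.86, in the knockout.

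Krt18 and Krt8, the simple-epithelial pair, are neighbours on chromosome 15 with 0 protein-coding genes between them in RefSeq, and both were higher in the knockout. Krt18 (probe set 1448169_at) read 13.10 in ET-1-treated and 13.58 in untreated knockout cells, against 7.48 in ET-1-treated and 10.55 in untreated wild-type cells. Both knockout values lay above both wild-type values, and the ET-1-treated wild-type value was the lowest of the 4. The difference was 49.0-fold after ET-1, against a wild-type value at percentile 21.8 of its array, and 8.12-fold in untreated cells. Krt8 was read by 3 probe sets, and the brightest (1420647_a_at) gave 10.62 and 11.41 in ET-1-treated and untreated knockout cells, against 9.76 and 10.04 in ET-1-treated and untreated wild-type cells. Both knockout values were again above both wild-type values, but the distance was smaller, 1.81-fold after ET-1 and 2.57-fold in untreated cells. The share of all genes with such an order of the 4 arrays was not computed. The other 2 Krt8 probe sets gave log2 differences of 0.73 and 1.27 after ET-1 and of 1.08 and 1.79 in untreated cells, so all 3 had the same direction. Both of these carry the suffix _x_at, by which Affymetrix marks probe sets with probes that can also bind other transcripts. The type I and type II partners differed between genotypes by unequal factors.

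Krt7, a type II chain in the same cluster with 23 protein-coding genes between it and Krt8, 22 of them keratins, had a single probe set (1423952_a_at). It read 11.60 in ET-1-treated and 11.95 in untreated knockout cells, against 8.43 in ET-1-treated and 9.14 in untreated wild-type cells. The knockout values were the higher ones in both states, by 8.98-fold after ET-1 and by 7.02-fold in untreated cells. The log2 difference after ET-1 exceeded that in untreated cells by 0.36, so the genotype difference of Krt7 was nearly the same in both states.

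The promoter windows of genes that were higher together in the knockout are shown to set their sequence beside their values. RefSeq (GRCm38.p6) gave windows of 250 bases before to 50 after the annotated start for 7 of the 10 genes, and those of the 3 keratins above and of Dsp, described further on, are printed 5′ to 3′ on the strand of the gene. Capitals mark matches on either strand to the E-box CAGGTG, a sequence that Snail and Zeb repressors bind, to the GC box GGGCGG and to the TATA box TATAAA.
Krt18, chr15:102027966-102028265, plus strand: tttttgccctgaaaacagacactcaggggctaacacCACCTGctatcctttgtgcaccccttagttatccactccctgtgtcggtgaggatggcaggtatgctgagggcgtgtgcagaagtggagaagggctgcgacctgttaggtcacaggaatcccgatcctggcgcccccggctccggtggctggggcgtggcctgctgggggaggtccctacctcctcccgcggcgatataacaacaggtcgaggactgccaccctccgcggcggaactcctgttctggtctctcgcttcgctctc
Krt8, chr15:102004293-102004592, minus strand: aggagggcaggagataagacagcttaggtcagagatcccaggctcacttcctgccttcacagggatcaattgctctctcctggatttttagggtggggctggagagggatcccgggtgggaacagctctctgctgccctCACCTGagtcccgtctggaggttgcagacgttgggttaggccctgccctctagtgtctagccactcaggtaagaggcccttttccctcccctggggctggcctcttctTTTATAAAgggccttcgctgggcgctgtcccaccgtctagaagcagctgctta
Krt7, chr15:101412153-101412452, plus strand: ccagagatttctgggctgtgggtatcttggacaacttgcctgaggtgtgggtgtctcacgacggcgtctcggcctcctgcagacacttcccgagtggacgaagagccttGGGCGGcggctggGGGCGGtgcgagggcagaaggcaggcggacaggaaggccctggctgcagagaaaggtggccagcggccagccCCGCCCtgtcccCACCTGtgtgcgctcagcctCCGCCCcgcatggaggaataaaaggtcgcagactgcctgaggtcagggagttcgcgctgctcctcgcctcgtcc
Dsp, chr13:38151044-38151343, plus strand: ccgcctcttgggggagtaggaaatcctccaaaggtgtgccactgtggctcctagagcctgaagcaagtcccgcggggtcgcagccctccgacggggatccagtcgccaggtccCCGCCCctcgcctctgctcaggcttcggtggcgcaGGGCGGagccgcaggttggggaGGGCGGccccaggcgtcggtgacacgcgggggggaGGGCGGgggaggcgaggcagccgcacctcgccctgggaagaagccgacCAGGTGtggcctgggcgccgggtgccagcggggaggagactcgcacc
The E-box was found in the windows of Krt7, Krt8, Krt18, Dsp and Epcam, 5 of 7, and in 20.2% of 32851 windows of this length. Epcam, which was not higher in the knockout, has it as well, and Krt14 and Jup, which were higher, do not. Pkp2 and Krt19, also not higher, had no window, so a link between these letters and the values was not tested. The GC box was found in 4 of 7 (35.7% of all windows) and the TATA box in 1 of 7, Krt8 (13.6% of all windows). The Krt8 matches overlapped on both strands and began at bases -3 and -1, directly at the annotated start. The Dsp E-box began at base 4 after its annotated start. The AP-1 sequence TGANTCA (7.81% of all windows) and the Grainyhead-like sequence AACCNGTT (2.09%) were in 0 of 7. The Krt14 window held none of the 5 sequences.

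Krt14, the basal keratin, had the most divergent probe sets. The brightest (1423935_x_at) read 13.61 in ET-1-treated and 13.88 in untreated knockout cells, against 8.45 in ET-1-treated and 11.69 in untreated wild-type cells. The probe set 1460347_at, which has no suffix letter, followed it with 12.46 and 12.86 in ET-1-treated and untreated knockout cells, against 7.62 and 10.44 in ET-1-treated and untreated wild-type cells. In both, the knockout arrays were high and alike and the ET-1-treated wild-type array was far below the untreated one. The third, 1455573_at, stayed between 8.48 and 8.96 on all 4 arrays, with a highest log2 difference between genotypes of 0.40. By the brightest probe set the difference was 35.9-fold after ET-1 and 4.57-fold in untreated cells. The mean of the 3 probe sets gave 3.47 after ET-1 on the log2 scale, against 5.17 by the brightest. Krt5, the usual partner of Krt14, differed by -0.14 after ET-1 and by -0.08 in untreated cells.

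Krt19, a type I chain that lacks most of the usual tail domain, went the other way. Its only probe set (1417156_at) read 7.99 in ET-1-treated and 8.86 in untreated knockout cells, against 11.40 in ET-1-treated and 11.43 in untreated wild-type cells. The wild-type values were the high ones and nearly equal, and both knockout values were below 8.90. The knockout was lower by 10.6-fold after ET-1 and by 5.91-fold in untreated cells. On chromosome 11 Krt19 and Krt14 are separated by 1 protein-coding gene, Krt9, so keratins next but one to each other differed between genotypes in opposite directions.

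Dsp, which anchors keratin filaments to the desmosome, was higher in the knockout by both of its brighter probe sets. The brightest (1435493_at) read 9.70 in ET-1-treated and 9.55 in untreated knockout cells, against 7.30 in ET-1-treated and 7.69 in untreated wild-type cells. The second (1435494_s_at) read 9.54 and 9.47 in ET-1-treated and untreated knockout cells, against 7.04 and 7.21 in ET-1-treated and untreated wild-type cells. The knockout arrays were above 8.90 and the wild-type values at percentiles 15.3 to 24.8 of their arrays, so the folds of 5.29 after ET-1 and 3.64 in untreated cells are measured against dim wild-type values. The third probe set, 1427610_at, was dim on all arrays (7.23 to 7.32) and showed no distance between genotypes.

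Jup encodes plakoglobin, which also joins cadherins to actin in adherens junctions. Its single probe set (1426873_s_at) read 11.76 in ET-1-treated and 12.00 in untreated knockout cells, against 10.56 in ET-1-treated and 11.12 in untreated wild-type cells. The knockout value was the higher one in both states, by 2.29-fold after ET-1 and by 1.84-fold in untreated cells. Pkp2, a plakophilin, had 4 probe sets. The brightest (1449799_s_at) read 12.85 in ET-1-treated and 12.68 in untreated knockout cells, against 13.46 in ET-1-treated and 12.80 in untreated wild-type cells. Over the 4 probe sets the log2 genotype differences ran from -0.61 to -0.08 after ET-1 and from -0.29 to 0.09 in untreated cells. Among the plaque genes of the desmosome, Dsp was far apart between genotypes, Jup less so and Pkp2 within 2-fold.

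Mpzl2, an immunoglobulin-domain protein that mediates adhesion between like cells in epithelia and thymus, showed the largest distances of the 10 genes by the brightest probe set. Its brightest probe set (1416236_a_at) read 12.84 in ET-1-treated and 12.94 in untreated knockout cells, against 5.36 in ET-1-treated and 9.13 in untreated wild-type cells. The ET-1-treated wild-type value lay close to the lowest value of that array, 5.02, so its fold after ET-1 is uncertain and only the 14.1-fold difference in untreated cells rests on brighter values. The probe set 1448265_x_at gave nearly the same pattern, with 12.31 in ET-1-treated knockout cells and 5.63 in ET-1-treated wild-type cells, the last at percentile 1.9 of its array and so again too dim for a fold, and with a difference of 15.7-fold in untreated cells. The remaining one, 1416237_at, had the same direction at a smaller size, 2.72-fold after ET-1 and 2.93-fold in untreated cells. It did not show the very low value, as it read 8.15 in ET-1-treated and 8.69 in untreated wild-type cells.

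Epcam, the epithelial cell adhesion molecule, was read by 2 probe sets with different levels. The brighter (1447899_x_at) read 11.69 in ET-1-treated and 11.73 in untreated knockout cells, against 12.08 in ET-1-treated and 11.99 in untreated wild-type cells. The dimmer (1416579_a_at) lay between 7.66 and 7.97 on all 4 arrays, under the filter, and the brighter one carries the suffix _x_at. Neither reached 1.5-fold between genotypes.

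**Figure D2:**
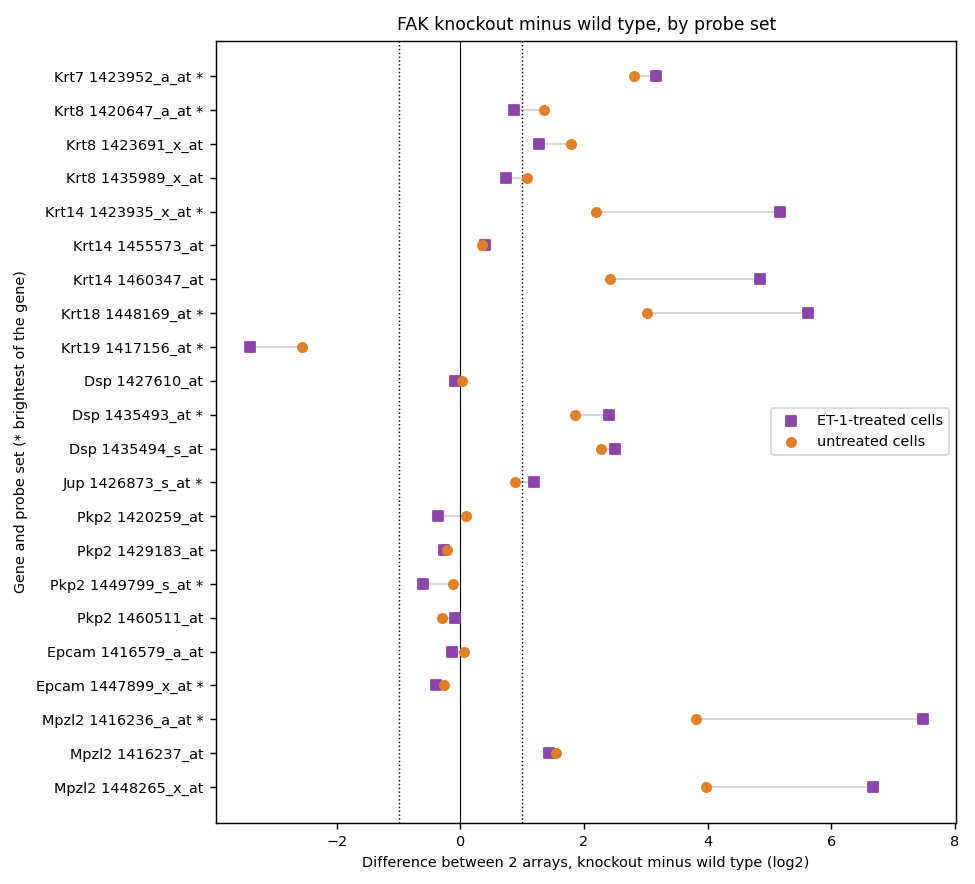
Each row is 1 of the 22 probe sets, named by gene and probe set, and the x axis is the log2 difference between 2 arrays, knockout minus wild type, after ET-1 (squares) and in untreated cells (circles); dotted lines mark 2-fold. Of the 22 probe sets 11 were at least 2-fold higher in the knockout after ET-1 and 12 in untreated cells, and 1, that of Krt19, was at least 2-fold lower in both. Probe sets of the same gene are not independent readings. The 2-fold share over all probe sets was not computed, so only the counts by gene in the text have a background.

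The genotype difference averaged over treatments was tested with limma across 24637 probe sets. Of the 20 member probe sets tested, 5 rose and 1 fell in the knockout at an adjusted p under 0.05, where 2.51% of all probe sets rose and 2.67% fell. Krt7 rose by 2.99 ± 0.14 (log2 ± SE, limma adjusted p = 0.0333). Dsp rose by 2.13 ± 0.21 (limma adjusted p = 0.0389) and, by its second probe set, by 2.39 ± 0.19 (limma adjusted p = 0.0335). The dimmest Mpzl2 probe set rose by 1.5 ± 0.11 (limma adjusted p = 0.0333) and 1 Krt8 probe set, 1423691_x_at, rose by 1.53 ± 0.18 (limma adjusted p = 0.0476). Krt19 fell by 2.98 ± 0.25 (limma adjusted p = 0.0341). By the brightest probe set of each gene, 3 of 10 genes passed, with Krt7 and Dsp up and Krt19 down, where 5.9% of all genes did (2.85% up and 3.05% down). Dsp, by both probe sets, and the dimmest Mpzl2 probe set were above the filter only in the knockout, and Krt19 only in wild type. These probe sets entered the fit only through the genotype in which they were high. All calls depended on the filter, since with no filter 0 of 10 genes and 0% of all genes were called. Krt7, above the filter in untreated wild type too (9.14), was then not called either (limma adjusted p = 0.0533). The sizes for Krt18 (4.32 ± 0.72, limma adjusted p = 0.0749), Krt14 (3.68 ± 0.83, limma adjusted p = 0.115) and brightest Mpzl2 (5.65 ± 1.0, limma adjusted p = 0.081) were larger, with larger errors, and did not pass. Jup (1.04 ± 0.17, limma adjusted p = 0.075) and brightest Krt8 (1.11 ± 0.18, limma adjusted p = 0.0695) did not pass either, nor did Pkp2 and Epcam.

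The error in this fit is the genotype by treatment term and not a spread between cultures, and it is large for genes whose ET-1-treated wild-type value was far from the untreated one. The count of 3 was 6 of 10 genes (Krt7, Krt14, Krt18, Dsp and Mpzl2 higher, Krt19 lower) in a model of genotype alone that left out the ET-1-treated wild-type array, beside 10.7% of all genes. In that model wild type is 1 array, assumed to vary like the knockout, and the error comes only from the difference between the 2 knockout arrays, which is that of ET-1. The count ranged from 0 to 8 over the other settings tried.

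After ET-1, messages of 3 of the 10 members were far lower in wild-type cells. In wild type Krt14 was 9.48-fold, Krt18 8.42-fold and Mpzl2 13.6-fold lower after ET-1 than untreated, where 1.17% of all genes were lower by 2-fold or more and 0.781% higher. In the knockout 0 of 10 genes differed by 2-fold by the brightest probe set, where 0.236% of all genes were higher and 0.277% lower. A count of 0 is close to these shares. Over all genes the ET-1 differences were also narrower in the knockout, with an SD of 0.23 against 0.39 in wild type (log2). The sizes in wild type depend on dim values and on the probe set. For Mpzl2, whose ET-1-treated wild-type value is at percentile 0.6 of its array, the log2 difference of -3.76 became -1.45 with dim values raised to the 25th percentile and -2.39 by the mean of its probe sets. For Krt14 it was -3.24 by the brightest probe set and -2.06 by the mean. The same 3 genes differed after ET-1 in the knockout by -0.27 (Krt14), -0.48 (Krt18) and -0.10 (Mpzl2) on the log2 scale. For Mpzl2 this contrast depended on the probe set: by 1416237_at the ET-1 difference was -0.65 in the knockout and -0.54 in wild type. The ET-1 difference in the knockout exceeded that in wild type by 2.98 for Krt14, 2.59 for Krt18 and 3.66 for brightest Mpzl2 (log2), and by 2-fold or more in 3 of 10 genes, against 1.59% of all genes (1.31% in the other direction, with 0 members). Each of these values uses the ET-1-treated wild-type array with the wide Gapdh gap, and there is 1 array per group, so no test of these differences was possible.

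The other members differed less after ET-1. In the knockout the lowest log2 values were -0.87 for Krt19 and -0.78 for Krt8, and a further Krt8 probe set was 2.02-fold lower. In wild type Krt19 differed by -0.03, Krt8 by -0.28, Krt7 by -0.71 and Jup by -0.55, and Pkp2 was higher by 0.66 with its brightest probe set. By sign alone, 8 of 10 genes were lower after ET-1 in the knockout and 8 of 10 in wild type, with medians of -0.26 and -0.47 against -0.02 and 0.05 over all genes. Averaged over genotypes, 0 of 20 member probe sets passed limma for ET-1, and 5 had an unadjusted p under 0.05. Over all probe sets limma also called 0 (0% higher and 0% lower), with 4.1% at an unadjusted p under 0.05.

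**Figure D3:**
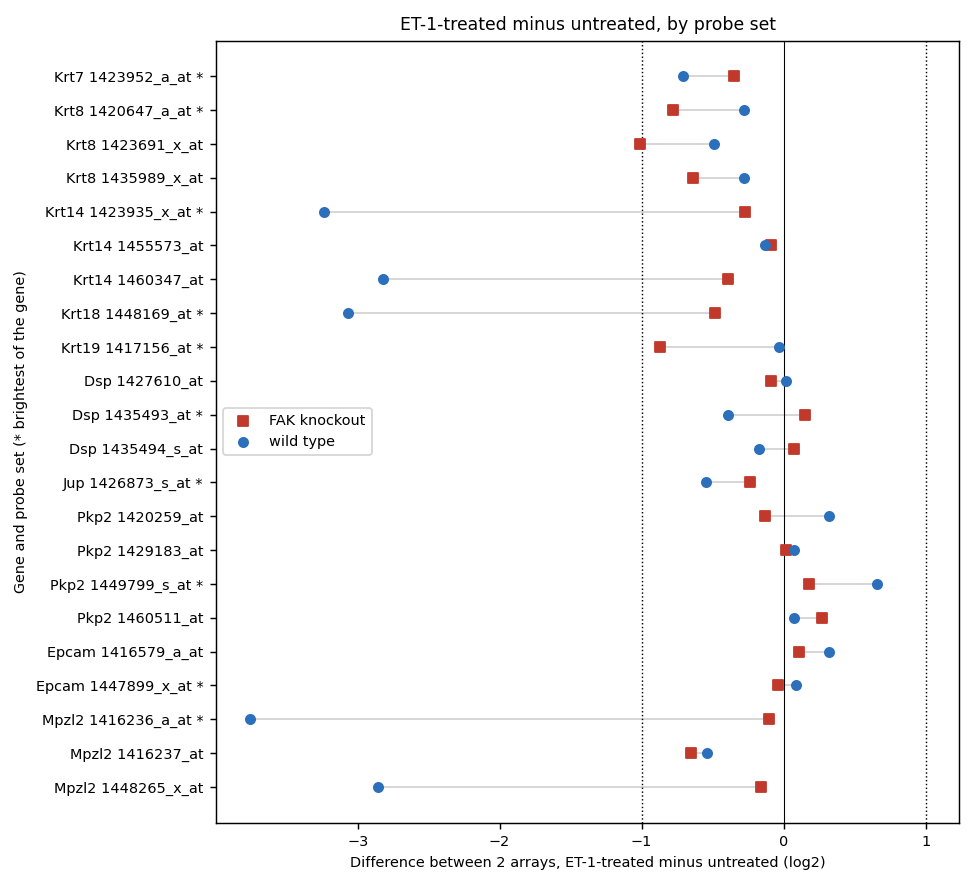
Rows are the 22 probe sets and the x axis is the log2 difference between 2 arrays, ET-1-treated minus untreated, in the FAK knockout (squares) and in wild type (circles); dotted lines mark 2-fold. The 5 wild-type circles left of -1 belong to Krt14, Krt18 and Mpzl2, and no wild-type or knockout value lies right of 1.

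Most further genes of the same structures did not share the pattern. Of 15 other desmosome genes listed, 12 were named on the array and 5 passed the filter. The desmosomal cadherins Dsc2 (7.22 to 7.57) and Dsg2 (7.98 to 8.01) were dim on all 4 arrays, and Dsc1, Dsc3, Dsg1a and Dsg1b were also under the filter. Of the 5 that passed, 1 rose, Evpl, which encodes envoplakin, a plakin of the same family as desmoplakin (1.29 ± 0.10, limma adjusted p = 0.0335). Periplakin (Ppl), its partner, differed by 0.75 ± 0.14 (limma adjusted p = 0.0856) and Pkp4 by -0.75 ± 0.26 (limma adjusted p = 0.206). The median log2 difference of those 5 was -0.14 after ET-1 and -0.08 in untreated cells.

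Of 43 other keratins, 18 passed the filter and 0 rose or fell by limma, 0 of them with a 2-fold difference in either state. Their median log2 difference was -0.05 after ET-1 and -0.05 in untreated cells. A keratin under the filter has no usable value here.

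Among 33 epithelial junction and identity genes, 31 were named, 19 passed the filter, 3 rose and 1 fell, where 2.85% of all genes rose and 3.05% fell. The tight-junction proteins F11r (1.60 ± 0.15, limma adjusted p = 0.0381) and Cxadr (1.44 ± 0.16, limma adjusted p = 0.0453) and the polarity protein Pard6b (2.46 ± 0.24, limma adjusted p = 0.0396) rose. Klf5, an epithelial zinc-finger factor, fell by 1.63 ± 0.19 (limma adjusted p = 0.0473). E-cadherin (Cdh1), the defining adhesion molecule of epithelia, was under the filter on all 4 arrays, at 5.79 in ET-1-treated and 5.81 in untreated knockout cells, against 5.74 in ET-1-treated and 5.95 in untreated wild-type cells. The median of the 19 was 0.07 after ET-1 and 0.03 in untreated cells, close to that of all genes. In each state, however, 5 of the 19 were at least 2-fold higher in the knockout and 1 was lower. Over all genes 5.6% were higher and 6.53% lower after ET-1, and 4.77% higher and 4.59% lower in untreated cells.

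Of 10 partners of keratin and desmosome, 2 fell and 0 rose. These were the cytolinkers Eppk1 (epiplakin, -1.62 ± 0.10, limma adjusted p = 0.0333) and Plec (plectin, -1.18 ± 0.15, limma adjusted p = 0.0497), both plakins that bind keratin filaments. Vimentin (Vim) differed by -0.59 ± 0.08 (limma adjusted p = 0.0527). Of 7 mesenchymal transition factors 6 passed the filter, and Twist2 (-3.64 ± 0.26, limma adjusted p = 0.0333) and Prrx1 (-4.29 ± 0.44, limma adjusted p = 0.0417) fell. Zeb1, Zeb2 and Twist1 did not pass, nor did Snai2 (-1.30 ± 0.18, limma adjusted p = 0.0562).

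**Figure D4:**
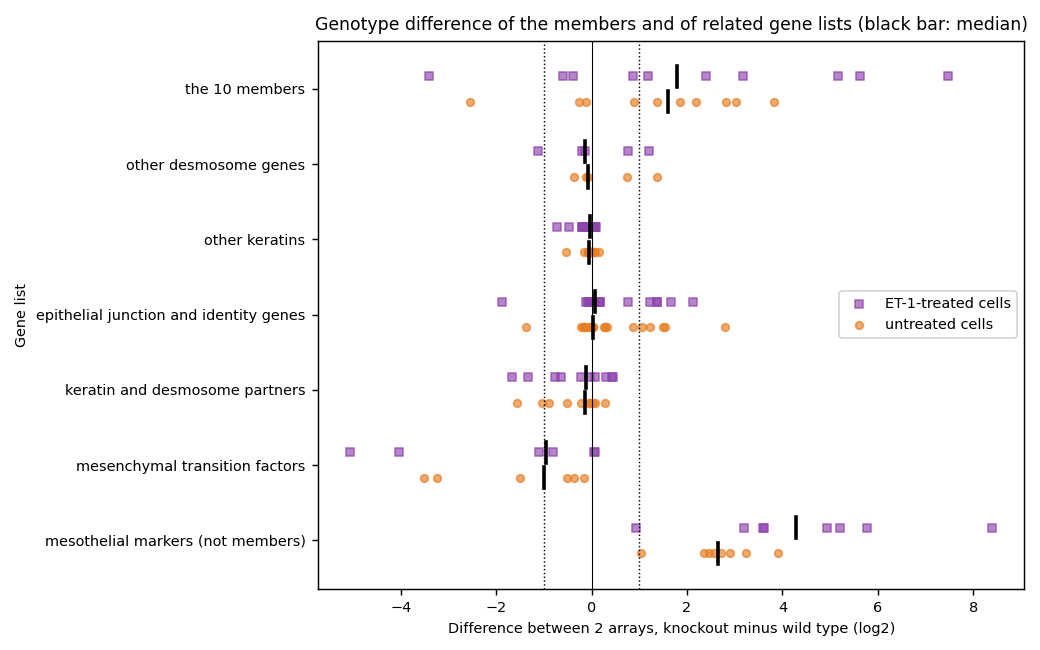
Each point is 1 gene by its brightest probe set, among genes past the filter, on an x axis of the log2 difference, knockout minus wild type, after ET-1 (squares) and in untreated cells (circles), with 1 gene list per row; black bars are medians and dotted lines 2-fold. The 10 members have medians of 1.80 and 1.61 and the mesothelial markers of 4.28 and 2.64, while the other keratins stay within 2-fold.

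Markers of mesothelial cells were higher in the same arrays as these genes. Of 8 mesothelial markers that are not members (Wt1, Msln, Upk3b, Upk1b, Lrrn4, Gpm6a, Muc16 and Bnc1), 7 were at least 2-fold higher in the knockout after ET-1 and 8 in untreated cells, and 5 rose by limma. Over all genes 5.6% were higher by that margin after ET-1 and 4.77% in untreated cells, and 2.85% rose by limma. Muc16, among the 5 that rose, was above the filter only in the knockout. It read 10.92 and 10.74 there with and without ET-1, against 7.73 and 8.27 in wild type. The summed level of the 8 markers (log2 of the summed values) was 16.67 in ET-1-treated and 16.78 in untreated knockout cells. In wild-type cells it was 12.95 with ET-1 and 14.26 untreated. The 4 arrays stood in the same order as for Krt14, Krt18 and Mpzl2, with the untreated knockout highest and ET-1-treated wild type lowest. None of the 8 was under the filter on a knockout array, and on the ET-1-treated wild-type array 3 were above it. Krt19, which mesothelium also expresses, fell. The part of such cells in the results was not tested, and more of these cells and more message per cell cannot be told apart in bulk RNA.

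For markers of other cell types the values were as follows. Of 5 simple-epithelial markers that are not members, Esrp1, an epithelial splicing regulator, was at least 2-fold higher in the knockout in both states, by 1.36 after ET-1 and 1.23 in untreated cells on the log2 scale (1.30 ± 0.17 averaged, limma adjusted p = 0.0548). Their summed level, in which Grhl2 at 10.39 to 10.62 weighs most, was 11.50 in ET-1-treated and 11.47 in untreated knockout cells, against 11.36 in ET-1-treated and 11.46 in untreated wild-type cells, and 0 of the 3 past the filter passed limma. For 5 basal keratinocyte markers on the array it was 10.77 and 10.79 in ET-1-treated and untreated knockout cells, against 10.69 and 10.67 in ET-1-treated and untreated wild-type cells. Of those 5, Krt5 alone was above the filter, and Trp63, the transcription factor that defines basal cells, read 8.39 to 8.46. Of 6 trophoblast markers 3 passed the filter and 0 passed limma. Of 5 endothelial markers 1 passed the filter and it did not pass limma, and of 5 macrophage markers 3 passed the filter and Csf1r rose by 1.09 ± 0.12 (limma adjusted p = 0.0458), with Ptprc dim at 6.58 to 6.70. Of the 12 fibroblast markers, 10 passed the filter, Pdgfrb, Prrx1 and S100a4 fell and Dcn rose. By 2-fold or more, 7 were lower in the knockout after ET-1 and 6 in untreated cells, with median log2 differences over those past the filter of -1.85 after ET-1 and -1.59 in untreated cells. Thy1, a surface glycoprotein of fibroblasts, differed most, by -6.62 after ET-1 and -4.07 in untreated cells (limma adjusted p = 0.0547), and the collagen chain Col1a1 differed by -2.38 and -1.55 (limma adjusted p = 0.0557). The summed level of the 12, to which Vim, Col1a2 and Col3a1 add most, was 16.44 in ET-1-treated and 16.63 in untreated knockout cells, against 17.41 in ET-1-treated and 17.29 in untreated wild-type cells.

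The genes with the most similar profile over the 4 arrays were taken by the root mean square difference after each gene's own mean was subtracted. Closest to Krt18 were Ptgis, the prostacyclin synthase (0.22), the uroplakin Upk3b (0.24) and Apela, a peptide ligand of the apelin receptor (0.28). Krt14 had Ptgis (0.22) and Upk3b (0.23) as its nearest genes too, followed by Krt18 (0.33). Krt19 lay nearest to the collagen chain Col12a1 (0.11), the pyrophosphate transporter Ank (0.14) and the caveolin Cav2 (0.14). The nearest to Dsp were the sialyltransferase St6gal1 (0.05), the Rac regulator Chn2 (0.07) and the receptor Sirpa (0.07), and the nearest to Mpzl2 were Efemp1 (0.36), Bex1 (0.38) and Peg3 (0.39). Likeness over 4 arrays is a weak description, since many genes share a profile of so few points.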

How the data were processed

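RNA of mouse embryonic fibroblasts was hybridised to Affymetrix mouse genome arrays, 1 per group, after amplification and biotin labelling of 100 ng of total RNA, per the labels' protocols. The deposited log2 values, 1 per probe set and array, were made by the authors with RMA per the submitters' processing notes, whose version and further steps are not given in the sources used here. The table holds 45101 probe sets, 64 of them controls. The values run from 5.00 to 15.24, and a lowest value this high can understate differences of dim genes.

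Gene names came from the platform's annotation (34945 probe sets with 1 gene), and a gene was represented by its probe set with the highest mean. Differences were taken between deposited log2 values as they stand. limma 3.58.1 in R 4.3.3 fitted genotype and treatment additively (lmFit, eBayes with intensity trend) to 24637 probe sets whose highest value was above 8.90, with Benjamini-Hochberg adjustment over all of them at 0.05. The fit has 1 residual degree of freedom, to which the prior adds 2.358, and its p-values do not measure a spread between cultures. Python 3.11.15, numpy 2.4.6, pandas 2.3.3 and matplotlib 3.10.9 did the rest.

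The members, lists, alternatives and the rule for named genes were chosen with earlier results of these data known. Named are all members, up to 4 called genes of each list and those that define it, the cell type markers, and the 3 genes most like each of 5 members. Genes passed over as alike had predicted or clone names. Alternatives concerned the probe set, the filter, scaling, a floor on dim values, the fold and the model. Precision is limited by there being 1 array per group.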

Additional observations from a re-analysis of the deposited data

Results flagged for a closer look

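ET-1 differences of opposite sign in the 2 genotypes were seen for 2 members by the brightest probe set. Dsp differed after ET-1 by 0.15 in the knockout and by -0.39 in wild type, a distance of 0.54 on the log2 scale. Its probe set 1435494_s_at had the same signs (0.07 and -0.17), and 1427610_at, under the filter, had the reverse signs (-0.09 and 0.02). The wild-type values of the brightest probe set were dim, 7.30 with ET-1 and 7.69 untreated. With dim values raised to the 25th percentile of the array, the wild-type difference of Dsp was -0.02 and the distance 0.18. Epcam differed by -0.04 in the knockout and by 0.09 in wild type, a distance of -0.14. Each value comes from 1 array per group, all are under 1.5-fold, and the difference between genotypes was not tested.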

How the results depend on the processing

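No paired analysis was possible because each group holds 1 array. The 2-fold counts for the genotype differences were 7 of 10 genes in both treatment states under each other choice of probe set, scaling and floor, and 9 after ET-1 and 8 in untreated cells at 1.5-fold. For ET-1, the count was 0 in the knockout and 3 in wild type, and at 1.5-fold it was 2 in the knockout and 5 in wild type. The share of all genes at 1.5-fold was not computed, so the counts at 1.5-fold have no background to be read against. With probe sets that have no suffix letter, the difference of ET-1 differences of Mpzl2 turned to -0.11, from the probe set 1416237_at, and the counts that include it were 2. Raising dim values to the 25th percentile of the array gave 1.35 for it, against 3.66 as deposited.

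The limma count for genotype was the least stable. It was 3 of 10 genes in the fit described, beside 5.9% of all genes. It was also 3 without the intensity trend (5.03% of all genes) and with genotype alone (11.1%). It was 4 with the floor (6.14% of all genes). It was 7 with the fit on the brightest probe set of each gene (13.4%), on the mean of its probe sets (17.4%) or under the stricter filter (13.0%). The last 2 were without Dsp, which was then too dim to be fitted. It was 8 with array medians subtracted, 6 when ET-1-treated wild type was left out, and 0 with no filter, where 0% of all genes passed. The share of all genes called ran up to 17.4%, and the member count did not follow it closely. At 11.1% of all genes it was 3 and at 11.6% it was 8, and the cause was not tested. The adjusted p of Krt18 ranged from 0.0194 to 0.127 and that of Krt7 from 0.00433 to 0.0533. Direction held for the called genes under every setting. For ET-1 the limma count was 0 under every setting tried. Values under 8.90 limit the folds of Mpzl2, Krt18, Krt14 and Krt7 after ET-1 (wild type), of Dsp in both states (wild type) and of Krt19 in both states (knockout).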

Other observations

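One further probe set, 1427841_at, is annotated to Krt14 and Krt17 together and was therefore not counted among the members. It read 8.88 in ET-1-treated and 8.84 in untreated knockout cells, against 8.86 in ET-1-treated and 8.77 in untreated wild-type cells, close to the flat Krt14 probe set 1455573_at.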
